A study of Mus musculus with 8 samples.

Results

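The 30 genes described here make cholesterol and fatty acids, and they are 30 of the 19007 genes whose ratios could be fitted on these arrays. They were chosen by gene name, as 20 sterol genes (enzymes from acetyl-CoA to cholesterol, with the regulators Insig1 and Srebf2 and the sterol carrier Stard4) and 10 fatty acid genes (enzymes that make, elongate or desaturate fatty acids, with the regulator Srebf1). All 30 had a probe on the array, with 60 probes in all, and each gene was well above background in both colours on all 8 arrays. The study compared genetically modified with control mouse small-intestinal organoids, which are epithelial cultures grown from crypts, to ask how Ascl2 and Wnt signalling govern crypt stemness. Ascl2 is a transcription factor (basic helix-loop-helix) that marks crypt stem cells, and Tcf7l2 is a DNA-binding partner of beta-catenin. Each 2-colour Agilent array carried RNA of a modified culture, called its own RNA, against RNA of a control culture.

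Ascl2 alone was overexpressed in experiments 1 and 2, on 3 arrays. In experiment 1, 2 arrays held organoids transduced with Ascl2, driven by a CMV promoter and switched on by 4OH-tamoxifen, with RNA extracted after 24 h, against VillinCreERT2 organoids; the dyes were swapped on replicate 2. In experiment 2, 1 array each held Ascl2-overexpressing organoids, Tcf7l2 null organoids, and Tcf7l2 null organoids that also overexpressed Ascl2, all against the same kind of control, organoids transduced with dsGFP. In experiment 3, Ascl2 null organoids were set against VillinCreERT2 organoids on 1 array. Self-self arrays, with control RNA in both colours, were made of dsGFP organoids in experiment 2 and of VillinCreERT2 organoids in experiment 3, although the description of the last names Ascl2loxp/loxp organoids where its genotype field names VillinCreERT2. All cultures, controls included, were pulsed for 16 h with 4OH-tamoxifen, the drug that activates CreERT2, and VillinCreERT2 expresses that recombinase in intestinal epithelium. The sources used here do not say whether replicates came from separate cultures or clones, so the p-values below reflect spread among these arrays alone, and it may be technical.

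Cholesterol is built in the mevalonate pathway, in which acetyl-CoA becomes isoprenoid units, then squalene, then the sterol ring that later enzymes trim and reduce. Fatty acid synthesis draws on the same acetyl-CoA, takes reducing power partly from malic enzyme, and ends with elongases and desaturases that set chain length and double bonds. SREBP transcription factors switch on both sets: Srebf2 is known mainly for the sterol genes and Srebf1 for the fatty acid genes, and NF-Y, which binds CCAAT boxes, is a known partner of SREBPs at many of these promoters. In the intestine, crypt cells make much of the tissue's cholesterol, while absorptive cells of the villus take up lipid and package it for export.

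Most sterol genes stood above 0 on the array of Ascl2 null organoids and on that of Tcf7l2 loss plus Ascl2 overexpression. Promoters of some members are shown first, most of them genes with large ratios. Pmvk and Cyp51, whose ratios were also large, were searched but are not printed. RefSeq (build GRCm38.p6) gave windows for 23 of the 30 genes, from 250 bases before to 50 bases after a start site. Promoter windows of Stard4, Sqle, Fdps, Fdft1, Scd1, Scd2 and Fads1 were not used here. Only bases before the start site are printed, 5′ to 3′ on the gene's strand: 150 bases for Hmgcs1, the single one of the 23 with a sterol regulatory element core, and for Mvk, Mvd, Lss and Ebp, and 250 bases for Insig1 and Me1. Capitals mark the core motif TCACNCCAC and the CCAAT box, each on either strand, so that CCAAT on the other strand reads ATTGG; these motifs do not overlap one another in the stretches printed. The stretches lie at chr13:119690201-119690350 (plus strand), chr5:114444119-114444268 (plus), chr8:122443423-122443572 (minus), chr10:76531455-76531604 (plus), chrX:8193513-8193662 (minus), chr5:28071162-28071411 (plus) and chr9:86695915-86696164 (minus).
Hmgcs1: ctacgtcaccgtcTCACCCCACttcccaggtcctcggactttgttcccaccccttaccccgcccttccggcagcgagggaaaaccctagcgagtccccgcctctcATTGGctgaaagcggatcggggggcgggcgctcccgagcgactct
Mvk: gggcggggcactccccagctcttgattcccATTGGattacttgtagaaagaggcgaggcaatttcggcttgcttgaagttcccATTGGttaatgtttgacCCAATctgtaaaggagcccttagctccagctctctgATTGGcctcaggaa
Mvd: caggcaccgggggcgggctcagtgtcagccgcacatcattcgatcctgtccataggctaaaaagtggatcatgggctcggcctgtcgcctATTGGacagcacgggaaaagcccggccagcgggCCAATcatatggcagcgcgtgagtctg
Lss: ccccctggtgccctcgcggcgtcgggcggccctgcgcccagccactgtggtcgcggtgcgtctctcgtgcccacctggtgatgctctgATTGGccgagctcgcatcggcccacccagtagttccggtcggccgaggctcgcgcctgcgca
Ebp: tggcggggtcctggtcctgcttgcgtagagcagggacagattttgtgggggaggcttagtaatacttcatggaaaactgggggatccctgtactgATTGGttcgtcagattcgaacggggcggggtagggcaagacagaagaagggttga
Insig1: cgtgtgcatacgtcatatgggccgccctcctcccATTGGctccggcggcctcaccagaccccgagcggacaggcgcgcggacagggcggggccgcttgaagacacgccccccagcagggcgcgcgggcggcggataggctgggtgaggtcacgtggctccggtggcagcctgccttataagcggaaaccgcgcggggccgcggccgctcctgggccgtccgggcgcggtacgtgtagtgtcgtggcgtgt
Me1: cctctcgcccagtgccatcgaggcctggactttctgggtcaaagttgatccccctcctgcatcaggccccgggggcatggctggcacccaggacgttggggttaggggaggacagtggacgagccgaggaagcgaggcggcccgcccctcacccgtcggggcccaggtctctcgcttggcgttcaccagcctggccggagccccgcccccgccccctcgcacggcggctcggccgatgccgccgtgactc

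A CCAAT box was found in 15 of 16 sterol genes with a window (93.8%), in 4 of 7 fatty acid genes (57.1%) and in 41.1% of all 27025 genes with a window. Counted by window, the shares were 78.9% of 19 sterol windows, 5 of 10 fatty acid windows and 37.4% of all 32851 windows. Mvk, the kinase that phosphorylates mevalonate, held 5 CCAAT boxes within its window, at offsets of -173 to -14 from the start site. Mvd, which decarboxylates the mevalonate product to the isoprenoid unit, held a box on each strand, at -60 and -27. The TCACNCCAC core occurred in 1.24% of all windows and, among the 23 members searched, in Hmgcs1 alone, at -137, although Hmgcs1 was not among the genes with large ratios. Me1 has a second window in RefSeq with 1 CCAAT box at -208; the more upstream one, printed above, held neither motif. These matches describe letters in the window and were not set against expression in a test.

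Some facts of the whole series bear on every value below. Between 50.1% and 61.1% of spots were well above background in Cy3 and between 53.8% and 67.4% in Cy5, 0 spots were saturated, and precision is limited by how few arrays there are. The Ascl2 probe gave fitted log2 ratios of -0.15 and -0.53 in the Ascl2 overexpression conditions of experiments 1 and 2, -0.43 after Tcf7l2 loss, -0.78 with Tcf7l2 loss plus Ascl2 overexpression and -0.92 in Ascl2 null organoids. The Tcf7l2 probes stood at -0.37 (the brightest), -0.16 and -0.24 in Tcf7l2 null organoids and at 0.15, -0.20 and -0.26 when Ascl2 was also overexpressed. The sources used here do not give which parts of these genes were deleted or carried by the construct, so the probes do not check the labels, and conditions are named by label throughout. Before the dye swap was turned, the experiment 1 arrays correlated at -0.24 over all probes; turned, they correlated at 0.30 over the fitted genes. To check the tissue label, markers were examined: all 6 epithelial markers (Epcam, Cdh1, Vil1, Krt8, Krt20 and Cdx2) were well above background in both colours on 8 arrays. This held for 2 of 6 mesenchymal markers (Vim and Col1a2), 2 of 4 immune markers and 0 of 6 listed markers of adipocytes and hepatocytes, other cells that make lipid (Serpina1a had no probe by that name).

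Ratios are on the log2 scale, own RNA divided by control RNA, after loess normalization, which sets most genes near 0. A ratio of 1 is a 2-fold higher level in the own RNA. The fitted ratio of a condition with 1 array, used for summaries, is the same ratio less a dye term. That term is set by the self-self arrays and the arrays of experiment 1, so self-self values enter these fitted ratios. For experiment 1 the fitted ratio is the mean of its 2 arrays, in which the dye term cancels. Conditions with 1 array have no replicate check, so their values are given without a test, beside the self-self arrays and beside all genes.

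**Figure D1:**
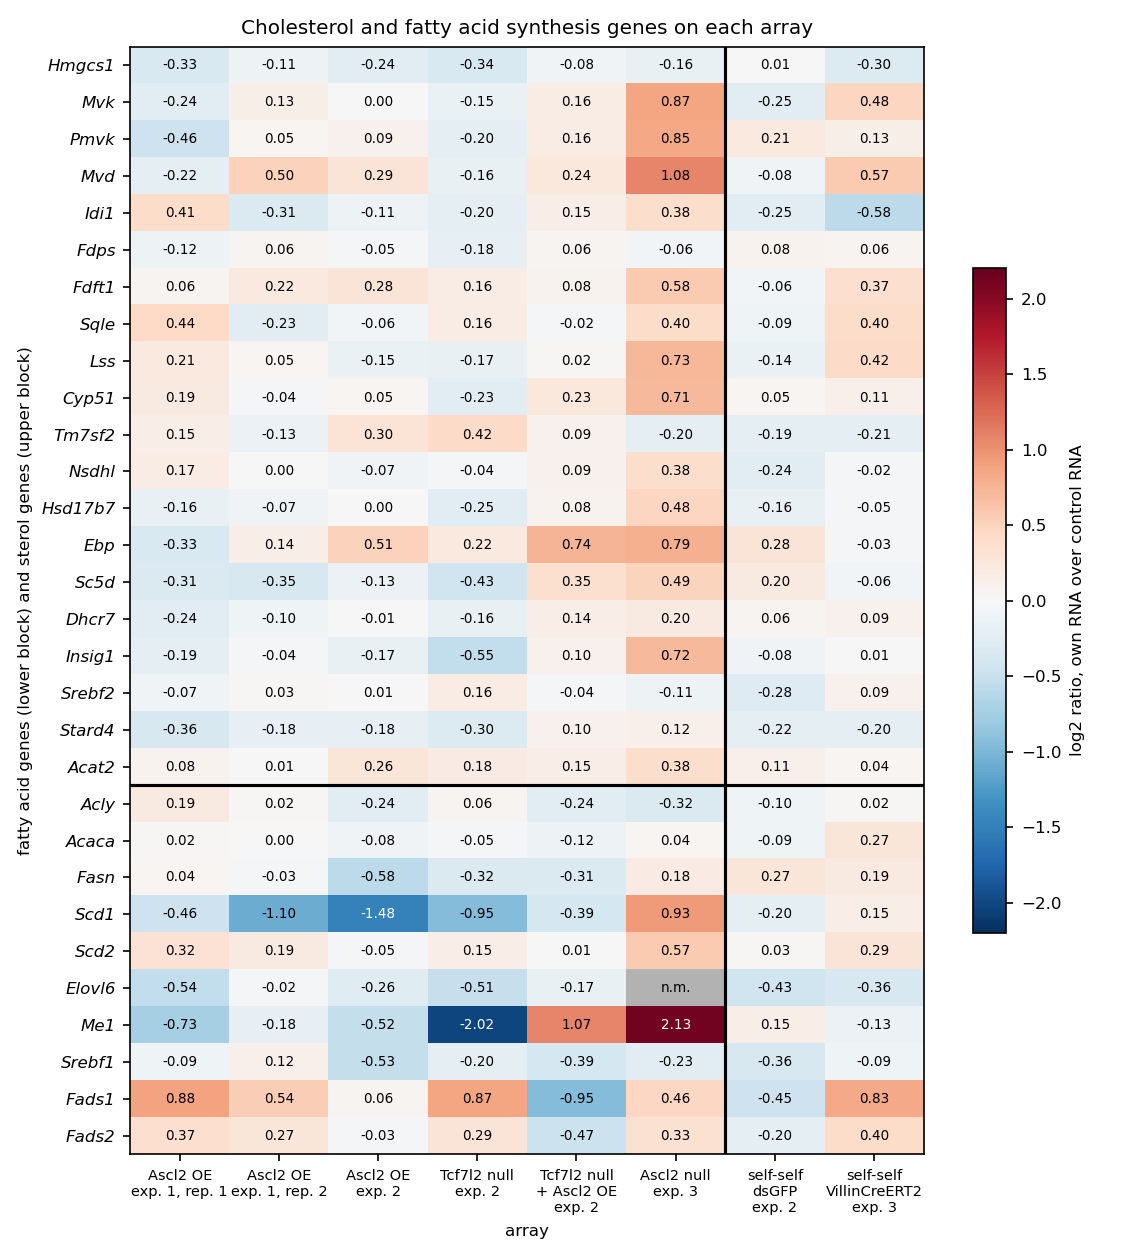
Heat map of the log2 ratio of own RNA over control RNA for the 30 genes (rows, sterol genes above the line, fatty acid genes below) on the 8 arrays (columns, self-self arrays at the right). Me1 runs from -2.02 on the Tcf7l2 null array to 2.13 on the Ascl2 null array, and Elovl6 was not measured (n.m.) on the Ascl2 null array.

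The sterol genes had their highest median in Ascl2 null organoids, and with Tcf7l2 loss plus Ascl2 overexpression nearly all were slightly above 0. Their median fitted ratio was 0.43 in Ascl2 null organoids, with 16 of 20 genes above 0, against 49.6% of all genes and an all-gene median of 0. In Tcf7l2 null organoids it was -0.16, with 5 of 20 above 0 (all genes, 49.4%), and with Ascl2 overexpression added it was 0.13, with 18 of 20 above 0 (all genes, 50.1%). Ascl2 overexpression alone gave sterol medians of -0.03 in experiment 1 and -0.02 in experiment 2, with 9 of 20 above 0 in each (all genes, 50.1% and 48.8%). The self-self arrays had sterol medians of -0.08 (dsGFP) and 0.05 (VillinCreERT2), so the Ascl2 null median was the one farthest from those of arrays with the same RNA in both colours.

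The fatty acid medians lay on either side of 0. The median fitted ratio was 0.25 in Ascl2 null organoids, with 6 of 9 measured genes above 0, -0.07 in Tcf7l2 null organoids (4 of 10), -0.25 with Ascl2 overexpression added (2 of 10), 0.01 in Ascl2 overexpression of experiment 1 (7 of 10) and -0.21 in that of experiment 2 (1 of 10). Ascl2 overexpression in experiment 2 and Tcf7l2 loss plus Ascl2 overexpression thus had most fatty acid genes below 0. In Ascl2 null organoids the sign was not stable: with the slide's self-self array subtracted the median was -0.07, with 3 of 9 above 0, and median centring gave -0.30. The self-self arrays gave medians of -0.15 (dsGFP) and 0.17 (VillinCreERT2), which covers much of that range. The members with the largest fitted ratios in size were Me1 and Scd1, followed by the sterol gene Mvd and by Fads1. The sterol median exceeded the fatty acid median by 0.38 in Tcf7l2 null organoids with Ascl2 overexpression, by 0.19 in Ascl2 overexpression of experiment 2 and by 0.17 in Ascl2 null organoids. In the other conditions this difference was -0.04 in Ascl2 overexpression of experiment 1 and -0.09 in Tcf7l2 null organoids, and on the self-self arrays the gap was 0.07 and -0.12.

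**Figure D2:**
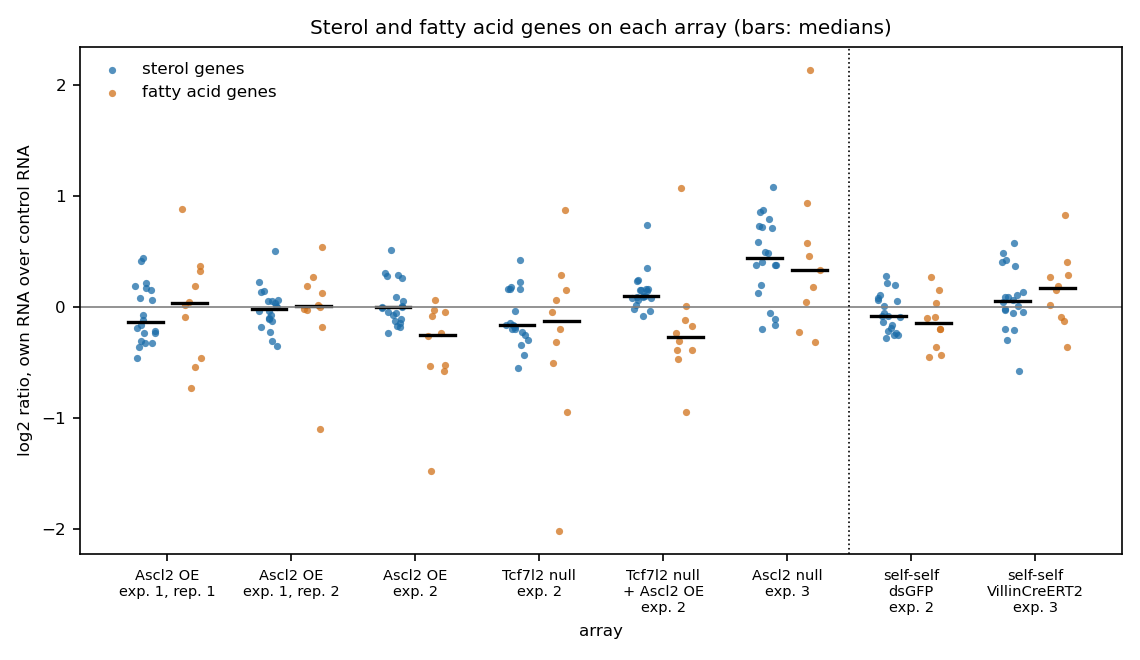
Log2 ratios of own RNA over control RNA on each array (x axis) for sterol genes (blue) and fatty acid genes (orange); each point is a gene and each bar the median of its group. The sterol median is 0.44 on the Ascl2 null array, against -0.08 and 0.05 on the self-self arrays at the right.

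In Ascl2 null organoids the mevalonate kinases and decarboxylase had the highest sterol ratios. Of the 20 sterol genes, 7 were at least 1.5-fold higher (Mvd, Mvk, Pmvk, Ebp, Insig1, Lss and Cyp51), which 5.45% of all genes were, and 0 were as much lower. Mvd alone among them was at least 2-fold higher; of the 29 members measured there, Mvd and Me1 were, against 2.05% of all genes, and 0 members were at least 2-fold lower, against 1.35%. The first enzyme of the list, Hmgcs1, which condenses acetyl units into HMG-CoA, stood apart with a fitted ratio of -0.03.

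Mvd had a log2 ratio of 1.08 on the Ascl2 null array, -0.22 and 0.50 on the Ascl2 overexpression arrays of experiment 1, 0.29 on that of experiment 2, -0.16 on the Tcf7l2 null array and 0.24 when Ascl2 was also overexpressed, against -0.08 (dsGFP) and 0.57 (VillinCreERT2) on the self-self arrays. Its Ascl2 null ratio was the highest, but the self-self array on its slide came next. The fitted Ascl2 null ratio was 1.14, a 2.2-fold higher level, measured by 1 probe (mm9, chr8:124957750-124957809).

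Mvk, mevalonate kinase, had 0.87 on the Ascl2 null array, -0.24 and 0.13 in Ascl2 overexpression of experiment 1, 0.00 in that of experiment 2, -0.15 in Tcf7l2 null organoids and 0.16 with Ascl2 overexpression added, against -0.25 and 0.48 on the self-self arrays. Pmvk, which adds the next phosphate, had 0.85 on the Ascl2 null array, -0.46, 0.05 and 0.09 on the 3 Ascl2 overexpression arrays, -0.20 in Tcf7l2 null organoids and 0.16 with Ascl2 overexpression added, against 0.21 and 0.13 on the self-self arrays. For both kinases the Ascl2 null array was the highest of 8, and both probes of each gene gave fitted ratios between 0.86 and 0.95 there. The fitted levels were 1.87-fold and 1.85-fold higher.

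Among the enzymes of the sterol ring, Ebp, the isomerase that shifts a ring double bond, had the highest ratio. It stood at 0.79 on the Ascl2 null array, -0.33, 0.14 and 0.51 on the 3 Ascl2 overexpression arrays, 0.22 in Tcf7l2 null organoids and 0.74 with Ascl2 overexpression added, against 0.28 and -0.03 on the self-self arrays. Ebp was thus high in Ascl2 null organoids and with Tcf7l2 loss plus Ascl2 overexpression, where it was the only sterol gene at least 1.5-fold higher (all genes, 3.43%). Less the slide's self-self array it was 0.46 there, and 0 sterol genes reached 1.5-fold.
Lss, which closes squalene epoxide into lanosterol, had 0.73 on the Ascl2 null array, 0.21, 0.05 and -0.15 in Ascl2 overexpression, -0.17 in Tcf7l2 null organoids and 0.02 with Ascl2 overexpression added, against -0.14 and 0.42 on the self-self arrays. Cyp51, the lanosterol demethylase, had 0.71 on the Ascl2 null array, 0.19, -0.04 and 0.05 in Ascl2 overexpression, -0.23 in Tcf7l2 null organoids and 0.23 with Ascl2 overexpression added, against 0.05 and 0.11 on the self-self arrays. Hsd17b7, a later ring reductase, had 0.48 on the Ascl2 null array, from -0.16 to 0.00 in Ascl2 overexpression, -0.25 in Tcf7l2 null organoids and 0.08 with Ascl2 overexpression added, against -0.16 and -0.05 on the self-self arrays. For these 3 enzymes, too, the Ascl2 null array was the highest, and for Lss the self-self array of its slide came next.

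Insig1, which holds SREBPs in the endoplasmic reticulum when sterol is plentiful and is itself a known SREBP target, had a log2 ratio of 0.72 on the Ascl2 null array, -0.19, -0.04 and -0.17 on the Ascl2 overexpression arrays, -0.55 on the Tcf7l2 null array and 0.10 when Ascl2 was also overexpressed, against -0.08 and 0.01 on the self-self arrays. No other sterol gene was as low as Insig1 on the Tcf7l2 null array, and both of its probes lay on the same side of 0 there (-0.54 and -0.45) and in Ascl2 null organoids (0.71 and 0.85). Srebf2, the regulator of the sterol genes, did not share this pattern: its fitted ratio was -0.03 in Ascl2 null organoids and 0.24 in Tcf7l2 null organoids. The remaining sterol genes had fitted Ascl2 null ratios from -0.17 (Tm7sf2, a ring reductase) to 0.54 (Fdft1, squalene synthase). Among them Sc5d, a desaturase of the ring, had 0.44, Idi1, the isoprenoid isomerase, 0.41, Nsdhl, a decarboxylating dehydrogenase, 0.40, and Acat2, the cytosolic thiolase, 0.32. Lower still were Stard4 (0.27), Dhcr7, the last reductase (0.20), Sqle, the squalene epoxidase (0.16), and Fdps, farnesyl diphosphate synthase (-0.05).

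On that slide's self-self array, Mvd, Mvk, Lss, Sqle and Fdft1 had log2 ratios of 0.57, 0.48, 0.42, 0.40 and 0.37 with the same RNA in both colours. With that array subtracted gene by gene, the sterol median in Ascl2 null organoids was 0.36, 18 of 20 genes were above 0, and 5 were at least 1.5-fold and 0 at least 2-fold higher. Sqle and Tm7sf2 were above 0 by only 0.01. Shares of all genes were not worked out for values less a self-self array, here or elsewhere, so these counts have no background beside them. The highest were then Idi1 (0.96), Ebp (0.83), Insig1 (0.72), Pmvk (0.72) and Cyp51 (0.60), while Mvd was 0.51 and Mvk 0.39. Relative to the slide's own control array, therefore, the order of the genes differed and the group's median was close to the fitted one. The fitted ratios already hold part of that array through the dye term.

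**Figure D3:**
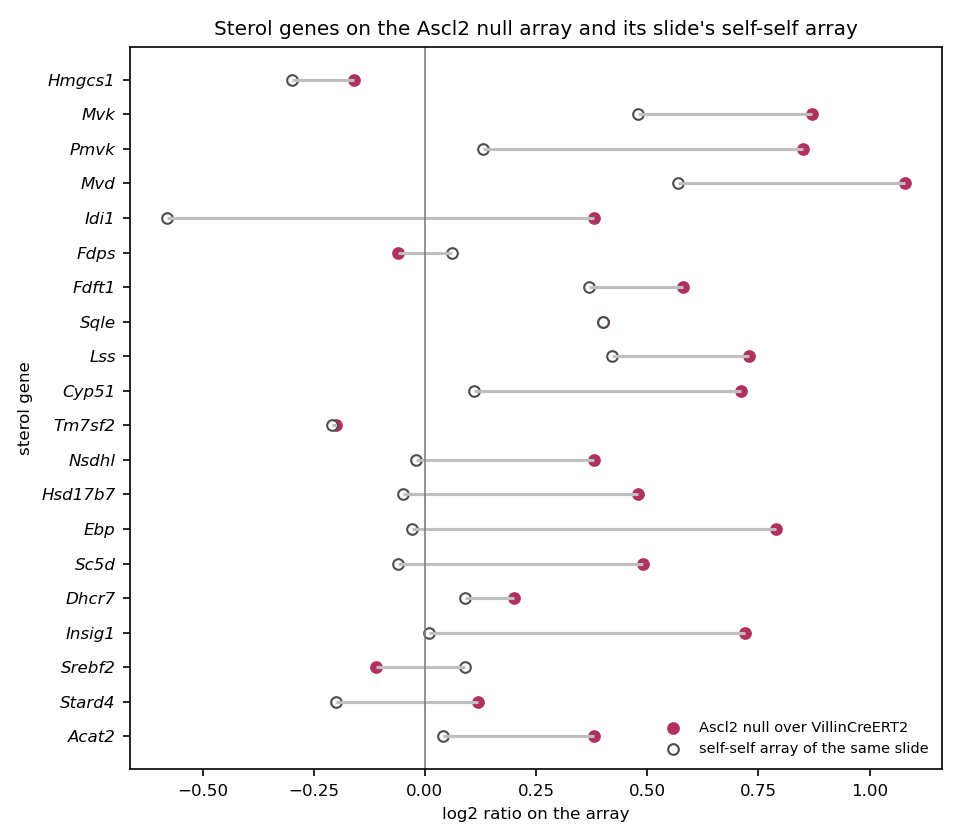
Log2 ratios of the 20 sterol genes on the Ascl2 null array (filled) and on that slide's self-self array (open), in pathway order from top to bottom. In 18 genes the Ascl2 null value is the higher, though by only 0.01 in Sqle and Tm7sf2. Fdps and Srebf2 are the exceptions.

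The normalization mattered as well. Median centring in place of loess put the median of all genes at -0.16 in Ascl2 null organoids and the sterol median at -0.01, so that the sterol genes stood 0.15 above all genes, with 12 of 20 above the all-gene median, in place of 0.43 and 16. The 7 genes named above as 1.5-fold higher were then all under that fold, from 0.06 (Cyp51) to 0.48 (Mvd). In Ascl2 overexpression of experiment 2 the sterol median was -0.44 under median centring, a difference of -0.26 from the all-gene median, with 4 of 20 above it. In Ascl2 null organoids the scanner's own ratio placed the sterol genes 0.49 above all genes, and the authors' deposited table placed them 0.51 above.

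Probes of Hmgcs1, Fdps, Lss and Srebf2 lay on both sides of 0 in Ascl2 null organoids, and in the first 3 the lowest probe was the one designed to an accession outside RefSeq. Hmgcs1 had fitted log2 ratios of 0.29 and 0.09 at its probes to a RefSeq transcript and -0.48 at its probe to another accession. Fdps had 0.53 at its RefSeq probe and -0.63 at the other, and Lss 1.00 and 0.96 at RefSeq probes against -0.11 at the other. In Fdps these probes lie at chr3:88898812-88898952 and chr3:88903026-88903085 (mm9), and in Lss at chr10:76015992-76016051, chr10:76013409-76013468 and chr10:76019513-76019572; which exons or untranslated regions they fall in was not analysed here. The gene means above for Hmgcs1 and Fdps, near 0, thus average probes on opposite sides of 0. So does that of Srebf2, with -0.38 and 0.03 at RefSeq probes and 0.01 and 0.21 at the others, where the lowest was a RefSeq probe. Nsdhl and Sc5d, which also have probes to other accessions, had every probe above 0. With RefSeq probes alone, a choice made after these values were seen, the sterol median in Ascl2 null organoids was 0.48 with 18 of 20 genes above the all-gene median.

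**Figure D4:**
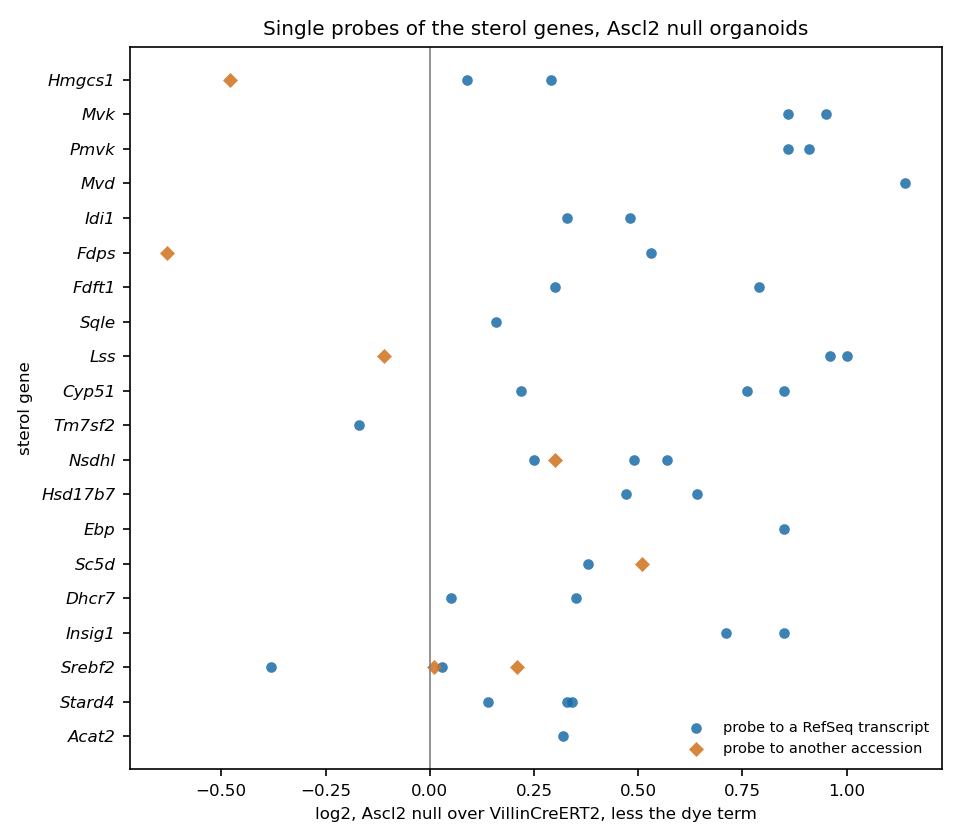
Fitted log2 ratio, Ascl2 null over VillinCreERT2, at each single probe of the 20 sterol genes; circles are probes to RefSeq transcripts and diamonds probes to other accessions. The diamonds of Hmgcs1, Fdps and Lss lie below 0 at -0.48, -0.63 and -0.11, with circles of the same genes at 0.09 to 1.00.

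Among the fatty acid genes, Me1 had the widest range of any member. Me1 is the cytosolic malic enzyme, which makes NADPH for lipid synthesis. Its log2 ratio was -0.73 and -0.18 on the Ascl2 overexpression arrays of experiment 1, -0.52 on that of experiment 2, -2.02 on the Tcf7l2 null array, 1.07 on the array of Tcf7l2 null organoids with Ascl2 overexpression and 2.13 on the Ascl2 null array, against 0.15 (dsGFP) and -0.13 (VillinCreERT2) on the self-self arrays. It was low on 4 arrays and high on 2, and the self-self arrays lay between them. In fitted values its level in Tcf7l2 null organoids was 0.269 of the control level, and 3 of 19007 genes were lower. In Ascl2 null organoids its fitted level was 4.79-fold that of the control, with 63 genes higher, and with Tcf7l2 loss plus Ascl2 overexpression it was 2.3-fold, with 140 genes higher. Both probes (mm9, chr9:86475291-86475347 and chr9:86480552-86480611) gave the same directions, at -2.11 and -1.67 in Tcf7l2 null organoids, 1.19 and 1.22 with Ascl2 overexpression added, and 2.48 and 2.04 in Ascl2 null organoids. With the self-self array of each slide subtracted, Me1 was -2.17 in Tcf7l2 null organoids, 0.92 with Ascl2 overexpression added, which is under 2-fold, and 2.26 in Ascl2 null organoids.

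Scd1, the stearoyl-CoA desaturase that makes monounsaturated fatty acids, had log2 ratios of -0.46 and -1.10 on the Ascl2 overexpression arrays of experiment 1, -1.48 on that of experiment 2, -0.95 in Tcf7l2 null organoids, -0.39 with Ascl2 overexpression added and 0.93 in Ascl2 null organoids, against -0.20 and 0.15 on the self-self arrays. It was below both self-self values on the 5 arrays of Ascl2 overexpression and Tcf7l2 loss, and above them on the Ascl2 null array. Less the self-self array of its slide, Scd1 was -1.28 in Ascl2 overexpression of experiment 2, -0.76 in Tcf7l2 null organoids, which is under 2-fold, -0.20 with Ascl2 overexpression added and 0.78 in Ascl2 null organoids. Scd2, a paralogue beside it on chromosome 19, had 0.32 and 0.19 in experiment 1, -0.05 in experiment 2, 0.15 in Tcf7l2 null organoids, 0.01 with Ascl2 overexpression added and 0.57 in Ascl2 null organoids, against 0.03 and 0.29 on the self-self arrays. The paralogues thus shared a direction on the Ascl2 null array and not on those of experiment 1.

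Fasn, the fatty acid synthase, had 0.04 and -0.03 on the Ascl2 overexpression arrays of experiment 1, -0.58 on that of experiment 2, -0.32 in Tcf7l2 null organoids, -0.31 with Ascl2 overexpression added and 0.18 in Ascl2 null organoids, against 0.27 and 0.19 on the self-self arrays. Its low values were on the 3 arrays of experiment 2 that shared the dsGFP control. Acly, which makes cytosolic acetyl-CoA from citrate, and Acaca, which carboxylates it, stayed between -0.34 and 0.10 in fitted ratio in every condition. The brighter Acly probe was -0.77 in Ascl2 null organoids, however, and the gene's mean of -0.34 includes a probe that did not pass the filter on dim probes.
Srebf1 had fitted ratios of -0.36 in Ascl2 overexpression of experiment 2, -0.23 in Tcf7l2 null organoids with Ascl2 overexpression and between -0.07 and 0.01 in the rest. Elovl6, the elongase of palmitate, ranged from -0.28 to 0.15 and was not measured on the Ascl2 null array, where its spot was an outlier.

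Fads1 and Fads2, neighbouring desaturases of polyunsaturated fatty acids on chromosome 19, had ratios of like sign on all arrays but that of Ascl2 overexpression in experiment 2, where both were near 0. Fads1 had log2 ratios of 0.88 and 0.54 on the Ascl2 overexpression arrays of experiment 1, 0.06 on that of experiment 2, 0.87 in Tcf7l2 null organoids, -0.95 with Ascl2 overexpression added and 0.46 in Ascl2 null organoids, against -0.45 (dsGFP) and 0.83 (VillinCreERT2) on the self-self arrays. Fads2 had 0.37 and 0.27, then -0.03, 0.29, -0.47 and 0.33 on the same arrays, against -0.20 and 0.40. Both were low in Tcf7l2 null organoids with Ascl2 overexpression, but the self-self values of Fads1 covered most of its range. With the self-self array of the slide subtracted, Fads1 was 0.51 in Ascl2 overexpression of experiment 2, 1.32 in Tcf7l2 null organoids, -0.51 with Ascl2 overexpression added and -0.37 in Ascl2 null organoids. The first and the last have their sign turned from the fitted -0.12 and 0.28.

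**Figure D5:**
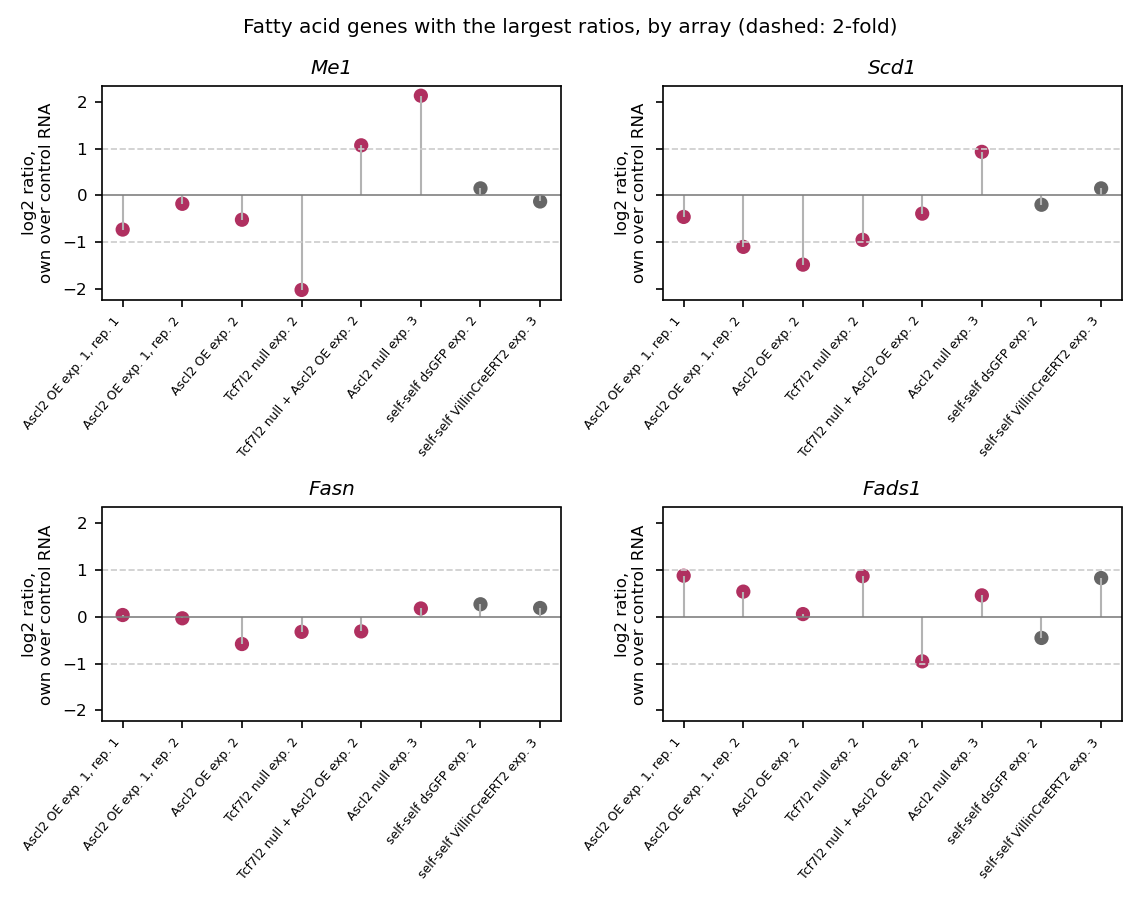
Log2 ratio of own RNA over control RNA for Me1, Scd1, Fasn and Fads1 on each array, with self-self arrays in grey at the right and dashed lines at 2-fold. Me1 exceeds 2-fold on 3 arrays while its self-self values are 0.15 and -0.13; Fads1 has self-self values of -0.45 and 0.83.

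Ascl2 overexpression, the only condition with more than 1 array, could be tested, and no member passed. The fitted ratios of experiments 1 and 2 correlated at only 0.03 over the fitted genes. The shared effect thus averages experiments that differed, and a gene not called may still have changed in 1 of them. Limma called 0 of 19007 genes (0%) at an adjusted p under 0.05, while 1230 genes (6.47%) had an unadjusted p under 0.05. Of the members, 4 of 30 had such an unadjusted p, all with a mean below 0. Scd1 had a shared log2 effect of -1.02 ± 0.20 (SE, n = 3 arrays; limma adjusted p = 0.243), below 0 on 3 of 3 arrays. Me1 had -0.44 ± 0.10 (adjusted p = 0.36), Sc5d -0.29 ± 0.08 (adjusted p = 0.459) and Stard4, which carries sterol between membranes, -0.20 ± 0.08 (adjusted p = 0.754), each also below 0 on 3 of 3 arrays. On the experiment 2 array, however, Stard4 probes stood at 0.08, -0.74 and 0.12, and the lowest was -0.87 on the dsGFP self-self array. The Stard4 mean was -0.18 there, against -0.22 and -0.20 on the self-self arrays. Sc5d probes also lay on both sides of 0 on the experiment 2 array, at 0.07 and -0.34. For Me1 the scanner's log ratio gave -0.93 (adjusted p = 0.242) and the authors' deposited table -0.92 (adjusted p = 0.132). With slide as a random block, 169 genes passed and 0 of them were members.

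At 2-fold, 0 members were higher or lower in experiment 1, where 0.0316% of all genes were at least 2-fold higher and 0.116% lower. In experiment 2, 0 members were at least 2-fold higher (all genes, 0.826%) and Scd1 was lower (all genes, 0.747%). The difference between experiments, experiment 2 minus experiment 1, was called by limma for 53 genes (0.279%) and for 0 members, against technical spread with 2 residual degrees of freedom. The member with the smallest p was Fasn, with a difference of -0.72 (adjusted p = 0.353), and the largest difference was that of Scd1, at -0.85 (adjusted p = 0.533). The 2 arrays of experiment 1 lay on the same side of 0 for 10 of 20 sterol genes and 7 of 10 fatty acid genes, beside 56.5% of all genes. On replicate 2, however, only 31.8% of all genes were above 0, with a median of -0.01, against 51.5% on replicate 1. Many ratios of replicate 2 thus lay just below 0, where the sign says little. The medians and 2-fold counts of experiment 1 rest partly on that array.

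In Tcf7l2 null organoids the members at least 2-fold lower were Me1 and Scd1 (all genes, 0.3%), and 0 members were at least 2-fold higher (all genes, 0.242%). With Ascl2 overexpression added, Me1 was at least 2-fold higher (all genes, 1.12%) and Fads1 at least 2-fold lower (all genes, 1.91%). These arrays and the Ascl2 overexpression array of experiment 2 share the dsGFP control, so their values are not independent. The difference between the Tcf7l2 null arrays, with Ascl2 overexpression minus without, does not depend on the level of that control, as far as the same control RNA was used. Me1 differed by 3.09 on this log2 scale and Fads1 by -1.82, the only members at least 2-fold higher (all genes, 2.31%) and lower (all genes, 3.64%). Of the sterol genes 15 of 20 were above 0 in this difference (all genes, 52.2%), with a median of 0.31, and Sc5d (0.77) and Insig1 (0.65) were at least 1.5-fold higher (all genes, 6.87%). The fatty acid median was -0.11.

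Other genes of the pathway, from a second list, did not share the sterol genes' level in Ascl2 null organoids. Of 20 listed, 18 were fitted (Msmo1 under its older name Sc4mol, while Thrsp did not pass the filter), with medians of 0.04 and -0.03 in Ascl2 overexpression of experiments 1 and 2, -0.02 after Tcf7l2 loss, 0.06 with Ascl2 overexpression added and 0.03 in Ascl2 null organoids. In the last, 10 of 18 were above 0, and Sc4mol, the sterol C4-methyl oxidase, had 0.64. Mlxipl, the carbohydrate-responsive activator of lipogenic genes, was the member of this list at least 2-fold lower in any condition, at -1.08 in Ascl2 overexpression of experiment 2, and it was -0.82 in Ascl2 null organoids.

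Genes of cholesterol uptake, storage and export had medians of -0.19 and -0.08 in Ascl2 overexpression of experiments 1 and 2, -0.32 after Tcf7l2 loss, 0.15 with Ascl2 overexpression added and 0.32 in Ascl2 null organoids, over 12 genes. Abca1, which exports cholesterol to lipoprotein, had fitted ratios of -1.39 in Ascl2 overexpression of experiment 2, -1.41 in Tcf7l2 null organoids, -0.41 with Ascl2 overexpression added and 0.82 in Ascl2 null organoids. Soat2, the intestinal enzyme that esterifies cholesterol for chylomicrons, had 1.05 in Ascl2 null organoids and -0.71 in Tcf7l2 null organoids, while its paralogue Soat1 had -0.89 and 0.32. On the arrays themselves Soat2 stood at 1.11 in Ascl2 null organoids, against 0.80 on the self-self array of that slide. The median of this list was 0.31 on the self-self array of experiment 3, about that of the Ascl2 null array of the same slide (0.28).

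Markers of cell types differed on the same arrays as the members, and fewer cells of a type cannot be told apart from less RNA per cell in these bulk samples. In Ascl2 null organoids the enterocyte list had a median of 1.22 (8 of 9 genes above 0, from -0.56 to 2.06), the enteroendocrine list one of 3.97 (7 of 7, from 0.69 to 5.00) and the stem cell list one of -0.77 (0 of 6, from -3.41 to -0.02). Lct, also on the enterocyte list, was not fitted because it had no value on the Tcf7l2 null array. Lct stood at -0.58 on the Ascl2 null array, against 0.03 on that slide's self-self array. Sis was the fitted enterocyte gene below 0, at -0.56. Enterocyte medians were -0.54 in Tcf7l2 null organoids (0 of 9, from -1.18 to -0.41), 0.24 with Ascl2 overexpression added (6 of 9, from -1.17 to 1.18), and -0.50 (0 of 9) and -0.57 (3 of 9) in Ascl2 overexpression of experiments 1 and 2. Me1, Scd1, Abca1 and Soat2 had their highest fitted ratios in Ascl2 null organoids, the condition with the highest enterocyte and enteroendocrine medians. Soat1 had its lowest there (-0.89). Stem cell medians were 0.51 (6 of 6 above 0) and -1.22 (0 of 6) in Ascl2 overexpression of experiments 1 and 2, 0.43 after Tcf7l2 loss (6 of 6) and -2.26 with Ascl2 overexpression added (0 of 6), and enteroendocrine medians were -0.92, 2.10, 0.19 and 2.65 in the same conditions. Cycling genes had medians of 0.55 in Tcf7l2 null organoids, -1.26 with Ascl2 overexpression added and -0.02 in Ascl2 null organoids. Paneth genes had medians of 0.40 and -1.78 in Ascl2 overexpression of experiments 1 and 2, -0.41 after Tcf7l2 loss, -1.91 with Ascl2 overexpression added and -0.03 in Ascl2 null organoids, and goblet medians stayed between -0.24 and 0.13. Mesenchymal and immune medians lay between -0.08 and 0.09 in every condition; of the adipocyte and hepatocyte markers Adipoq and Lep did not pass the filter, and Alb (albumin) was 1.71 in Tcf7l2 null organoids with Ascl2 overexpression. The part of these cell types in the members' values was not tested.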

How the data were processed

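The deposited scanner files hold spot intensities of 45018 spots per array in 2 colours, 1639 of them controls; per the file headers they come from Agilent's Feature Extraction software. Their log10 ratio (Cy5 over Cy3), flags for outliers and for signal well above background, and probe positions (mm9) are likewise as deposited. The authors' deposited table holds log2 ratios; its medians per array were 0.02 and -0.01 in experiment 1, 0.02, 0.00, 0.03 and 0.00 in experiment 2 and 0.00 on both arrays of experiment 3, it is Cy5 over Cy3 at the scanner's scale in experiments 2 and 3 (r = 1.0), and in experiment 1 replicate 2 is turned (r = 0.861 and -0.846), with a centring that stays unknown.

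In R 4.3.3 with limma 3.58.1, median spot and background intensities were corrected by normexp (offset 50), since 6 files hold no mean signal (the planned input), and log2 ratios were normalized by loess within each array. A gene is the mean of its probes by the array's gene name; 19166 of 28146 names had a probe with a channel well above background on at least 2 arrays, and 19007 were fitted. The first model had a common Ascl2 overexpression effect over 3 arrays, 3 other conditions and a dye term (3 residual degrees of freedom); the second split the Ascl2 effect by experiment (2 degrees) and gives the fitted ratios. P-values are two-sided, adjusted by Benjamini-Hochberg over all genes at 0.05. The fit was tested on simulated data with independent noise and, for each changed gene, the same effect in every condition. That simulation does not show how the shared test behaves where experiments differ or arrays of a slide correlate. Each experiment was on a slide of its own, so slide and experiment cannot be told apart; slide entered as a random block, and each array was also set against the self-self array of its slide. All 30 members are described, with values per array for about 12 with the largest ratios. The members and all lists were chosen with earlier results of these data known. No value column was left without a sample. Values of some single genes of the other lists are not reported here.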

Additional observations from a re-analysis of the deposited data

Results flagged for a closer look

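In 12 of 30 members (40%) all 3 Ascl2 overexpression arrays stood at or to one side of 0 and the difference that Ascl2 overexpression made in Tcf7l2 null organoids, with minus without, had the opposite sign; this held for 23.9% of all genes. The difference between these effects was not tested, and the last has 1 array on each side. Me1 had a difference of 3.09 in Tcf7l2 null organoids, against overexpression arrays from -0.73 to -0.18, and Fads1 one of -1.82, against 0.06 to 0.88. Scd1 had 0.56, against -1.48 to -0.46. Among sterol genes Sc5d had 0.77 (arrays from -0.35 to -0.13), Insig1 0.65 (-0.19 to -0.04), Stard4 0.40 (-0.36 to -0.18), Hsd17b7 0.34 (-0.16 to 0.00), Dhcr7 0.31 (-0.24 to -0.01) and Hmgcs1 0.26 (-0.33 to -0.11). On the experiment 2 overexpression array some of these means averaged probes on both sides of 0. Stard4 probes stood at 0.08, -0.74 and 0.12 there, and Sc5d probes at 0.07 and -0.34. Those of Hsd17b7 (-0.06 and 0.05) and Dhcr7 (0.05 and -0.07) were likewise split. Elovl6 had 0.34 (-0.54 to -0.02). Fdft1 (-0.08, arrays from 0.06 to 0.28) and Acat2 (-0.03, arrays from 0.01 to 0.26) met the same description with differences near 0.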

How the results depend on the processing

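Of 563 alternative values for 40 results, 485 moved by less than the technical spread (counts, by less than 1.5 times, and tested values without a change of call) and 78 moved further. Some of the 485 could not have moved. Leaving out the experiment 2 overexpression array does not alter the fitted ratios of other conditions, and dropping the filter on dim probes does not alter members' ratios. The technical spread rests on 2 residual degrees of freedom and reached 0.64 (Fads1), so 485 overstates stability. Among 462 log2 values and medians, 9 had the opposite sign, all of them list medians: the sterol median of experiment 1 (0.03 with median centring, 0.02 with RefSeq probes), that of experiment 2 (0.02 with the brightest or RefSeq probes), the fatty acid median in Tcf7l2 null organoids (0.08 with a dye term per slide), and others given below. Single genes entered that count only if at least 1.5-fold in size in the main fit, or through a tested shared effect. Smaller ratios turned more often. Over all members, median centring turned the sign of 11 of 29 in Ascl2 null organoids, up to a main size of 0.45. It turned 8 of 30 in Ascl2 overexpression of each experiment. A dye term per slide turned 8 of 30 in Ascl2 overexpression of experiment 2 and 7 of 30 in Tcf7l2 null organoids. Each ratio already pairs own and control RNA on 1 array. Between conditions, no pairing by replicate was possible because the groups compared share fewer than 2 replicate numbers. The count of genes called for Ascl2 overexpression, 0, was 1 with no filter on dim probes and 169 with slide as a random block, with 0 members in each. The count called between experiments, 53, was 81 with the scanner's log ratio, 0 with median centring, 129 with the authors' deposited table, 94 with no filter, 90 with passing probes only, 80 with the brightest probe and 171 with no dye term; leaving out 1 array gave 5 (without replicate 1 of experiment 1) to 202 (without the VillinCreERT2 self-self array), and 17 without the dsGFP self-self array. Median centring gave sterol medians of -0.01 in Ascl2 null organoids and -0.44 in Ascl2 overexpression of experiment 2, and fatty acid medians of -0.30 and -0.62. A dye term per slide gave sterol medians of 0.09 in Ascl2 overexpression of experiment 2 and -0.07 in Tcf7l2 null organoids, and a fatty acid median of -0.07 in Ascl2 null organoids. The brightest probe gave a sterol median of 0.51 in Ascl2 null organoids, and the authors' deposited table a fatty acid median of -0.38 in experiment 2. Leaving out 1 array, the sterol median of experiment 1 ran from -0.12 to -0.03 and the fatty acid median in Ascl2 null organoids from 0.09 to 0.36. Members at or beyond 2-fold, 0 in experiment 1, numbered 2 at 1.5-fold and with the scanner's ratio, 1 with the authors' deposited table and 0 to 1 with 1 array left out. In experiment 2 the count of 1 was 2 at 1.5-fold, with the scanner's ratio, with median centring and with the authors' deposited table. In Tcf7l2 null organoids the count of 2 was 1 with no dye term and 1 to 2 with 1 array left out; with Ascl2 overexpression added, 2 became 1 with the scanner's ratio or no dye term, 0 with a dye term per slide and 1 to 2 with 1 array left out. In Ascl2 null organoids 2 became 9 at 1.5-fold, 1 with median centring, the authors' deposited table or a dye term per slide, and 1 to 3 with 1 array left out. The causes were not tested. RefSeq probes alone were chosen as an alternative after seeing the data. All members were well above background, and 58 of their 60 probes passed the filter on dim probes, and most conditions have 1 array.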
